A study of Mus musculus with 2 samples.

Results

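Of the 32285 genes listed for this experiment, 106 code for the respiratory chain and its ATP synthase, 13 of them in mitochondrial DNA and 93 in the nucleus. They were chosen by gene symbol: every symbol starting with mt-, the Nduf subunits and Ndufaf assembly factors of complex I, Sdha to Sdhd of complex II, the Uqcr genes of complex III, Cox4 to Cox8 of complex IV and Atp5 of complex V. One pseudogene symbol, Ndufb1-ps, was left out. The cells were splenic CD8+ T cells of WT mice, kept for 30 h on plates that carried peptide on the class I molecule H-2Db, or rested without it. The stimulated conditions were 0.2, 2 and 20 pmol of the peptide called M9C, and 80 and 20 pmol of the peptide called L6F, each set against 1 rested condition. The labels name no T cell receptor transgene, no strain, no age and no number of mice. Cells of the 6 conditions were stained with 6 hashtag antibodies, sorted as live, pooled and run as 1 lane of a 10x Genomics droplet assay, which counts unique molecular identifiers (UMIs), 1 for each captured transcript. There was 1 culture per condition, so no test between conditions was possible and no p-value is given. Intervals are exact 95% intervals (Clopper-Pearson) and cover counting error only, not the spread between cultures.

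The chain passes electrons from NADH through complex I, or from succinate through complex II, to complex III, then by cytochrome c to complex IV, where oxygen is reduced. Complexes I, III and IV pump protons, and the ATP synthase, complex V, uses the gradient. Complex II is coded wholly in the nucleus, while the others join a few subunits made inside the mitochondrion to many that are imported, so that building them needs both genomes. T cells leaving rest are known to enlarge and to build up mitochondria, and memory CD8+ T cells are known for their use of respiration.

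Of 13439 barcodes, 11671 were given a condition, each by a top hashtag with at least 20 counts and at least 80% of the barcode's hashtag counts. Cells numbered 1633, 1760 and 1941 at 0.2, 2 and 20 pmol M9C, 2239 and 2515 at 80 and 20 pmol L6F, and 1583 in the rested condition. With a stricter limit of 50 counts and 90%, 549 rested cells remained, beside 1816 at 20 pmol M9C and 2394 at 20 pmol L6F. Most rested cells thus had a less secure hashtag assignment. A stimulated cell had a median of 6017 to 7017 UMIs by condition, against 846 in rested cells. The summed CD8 T cell markers (6 of 6 genes detected) stood at 2004 to 2161 UMIs per 1000000 UMIs of the condition (CPM) in stimulated cells and 4209 CPM in rested cells, and Cd4 was at 0 to 0.0771 CPM. Malat1, a nuclear RNA, stood at 1565 to 1779 CPM in stimulated cells and 8591 CPM in rested cells. Ribosomal protein genes held 22.8 to 23.4% of UMIs in stimulated cells and 30.4% in rested cells, and Trdc, the constant gene of the delta receptor chain, was at 52.7 to 96.6 CPM in stimulated cells and 380.5 CPM in rested cells. Macrophage markers summed to 0.749 to 24.9 CPM in stimulated cells and 90.3 CPM in rested cells (2 or 3 of 5 genes at 0), and erythroid markers to 2.61 to 41.0 CPM in stimulated cells and 99.0 CPM in rested cells (at most 1 of 5 at 0). Depth, Malat1, the share of ribosomal protein RNA and these markers thus moved with every comparison against rested cells. Leaving out the cells with 3 or more UMIs of another type's markers left the mt-encoded share at 1.72% at 20 pmol M9C against 2.44% in rested cells and the nuclear share at 2.48% against 1.91%, close to the values below. This filter took out 43 of 1583 rested cells and 67 of 1941 cells at 20 pmol M9C. With a median of 846 UMIs few rested cells could reach 3 marker UMIs, so cells of other types may remain among them. The part of such cells, of Malat1 and of ribosomal protein RNA in the results was not tested.

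The 2 genomes' transcripts differed in opposite directions after 30 h of stimulation when taken as a share of each condition's UMIs. The 13 mt-encoded genes summed to 17208, 17081 and 17137 CPM at 0.2, 2 and 20 pmol M9C, to 18946 and 18632 CPM at 80 and 20 pmol L6F, and to 24317 CPM in rested cells. The 93 nuclear genes summed to 25085, 25186 and 24826 CPM at the M9C doses, to 26188 and 25984 CPM at the L6F doses, and to 19360.2 CPM in rested cells. All 5 stimulated conditions thus lay below the rested one for the mitochondrial sum and above it for the nuclear sum. At 20 pmol M9C the log2 ratio to rested cells was -0.50 (-0.52 to -0.49) for the mt-encoded sum and 0.36 (0.34 to 0.38) for the nuclear sum. At 20 pmol L6F, set against the same rested cells, the values were -0.38 (-0.40 to -0.37) and 0.42 (0.41 to 0.44). Nuclear UMIs per mt-encoded UMI came to 1.46, 1.47 and 1.45 at 0.2, 2 and 20 pmol M9C, 1.38 and 1.39 at 80 and 20 pmol L6F, and 0.796 in rested cells. That quotient does not depend on how the conditions are scaled to each other, and under the alternative choices of cells its log2 ratio to rested cells was 0.22 to 0.95 at 20 pmol M9C and 0.15 to 0.90 at 20 pmol L6F. Within single depth classes the order was not the same throughout: among cells of 500 to under 1000 UMIs the quotient was 0.0432 to 0.0797 in the stimulated conditions and 0.763 in rested cells, and among cells of 1000 to under 2000 UMIs 0.312 to 0.727 in the stimulated conditions and 0.776 in rested cells.

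Per cell, both sets were higher in stimulated cells. A cell held a mean of 120.2, 117 and 114 mt-encoded UMIs at 0.2, 2 and 20 pmol M9C, 117 and 119 at 80 and 20 pmol L6F, and 23.0 in the rested condition. For nuclear members the means were 175, 172 and 166 UMIs at the M9C doses, 162 and 166 at the L6F doses, and 18.3 in rested cells. All 85 nuclear members that reached 10 CPM in either condition, and all 13 mt-encoded genes, had more UMIs per cell at 20 pmol M9C than in rested cells, as did 97% of all 7846 genes, so that the members' count is near that of genes at large. The median fold per cell was 9.52 for the nuclear members (2.89 to 20.9) and 5.94 for the mt-encoded genes (3.60 to 14.1), beside 7.55 over all 7846 genes at 10 CPM or more. On the per-cell scale the median gene lay 2.92 log2 units above rested cells, the nuclear sum 3.18 and the mt-encoded sum 2.32. This scale adds 2.82 log2 units to every gene's CPM ratio, so the order of the sums and the median gene is that of the CPM values. UMIs per cell mix the RNA content of a cell with how well its droplet was captured and read, and these cannot be told apart here.

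**Figure D1:**
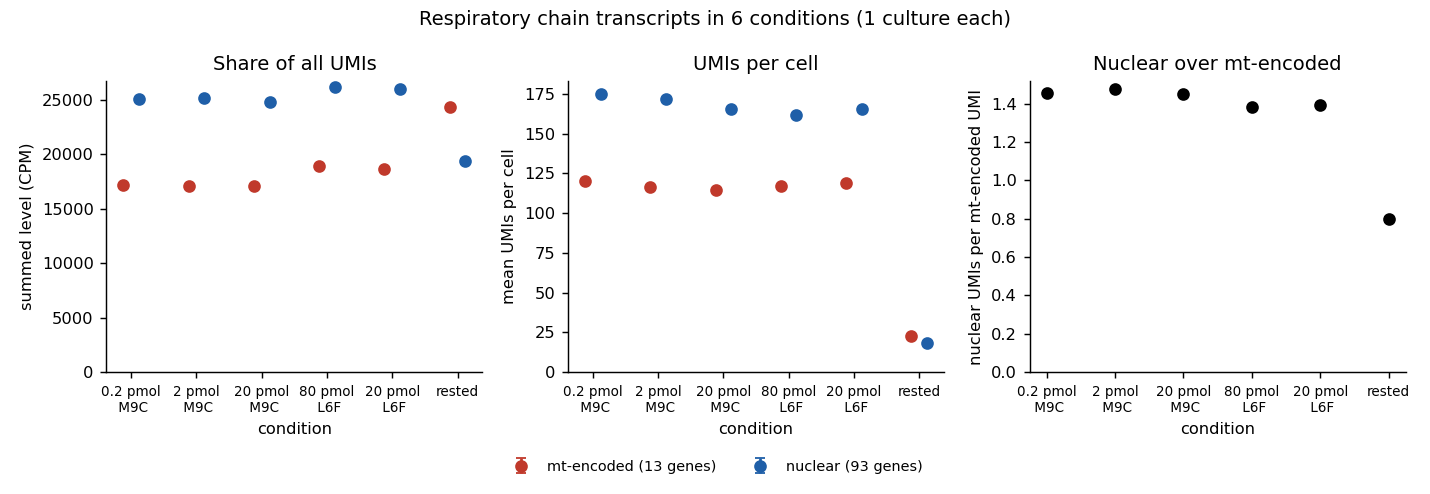
Summed level of the 13 mt-encoded and 93 nuclear respiratory chain genes in each condition, in CPM (left) and in mean UMIs per cell (middle), and nuclear UMIs per mt-encoded UMI (right). Exact 95% counting intervals are drawn in the left and right panels only. In CPM the mt-encoded sum lies between 17081 and 18946 in stimulated cells, below the 24317 of rested cells, while in UMIs per cell both sums are higher in every stimulated condition.

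The median single cell showed the same order. This median cell gave 1.63, 1.60 and 1.61% of its UMIs to mt-encoded genes at 0.2, 2 and 20 pmol M9C, 1.84 and 1.81% at 80 and 20 pmol L6F, and 2.35% in the rested condition. Its nuclear share was 2.48, 2.49 and 2.44% at the M9C doses, 2.59 and 2.57% at the L6F doses, and 1.87% in rested cells. A small set of stimulated cells had far more mitochondrial RNA: above 10% of UMIs were 38, 42 and 60 cells at 0.2, 2 and 20 pmol M9C, 24 and 30 cells at 80 and 20 pmol L6F, and 0 of 1583 rested cells (0 to 0.233%). At 20 pmol M9C such cells were 3.09% (2.37 to 3.96%) of the condition and at 20 pmol L6F 1.19% (0.806 to 1.70%). Their median depth was 616.5 to 714 UMIs by condition, far under the 6017 to 7017 of all stimulated cells, and they held 1.91 to 5.58% of a condition's mt-encoded UMIs. The data hold no barcode under 500 UMIs, and the rested median was 846 UMIs. Rested cells as far under their own median would be missing, so the 0 in rested cells is not comparable. High mitochondrial share with few UMIs is a common mark of damaged cells; whether these were damaged was not tested.

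The comparison with rested cells therefore depended on which depths were set side by side. Among cells of 500 to under 1000 UMIs the mt-encoded share was 18.3 to 25.3% in the stimulated conditions and 2.44% in rested cells, and the nuclear share 1.09 to 1.46% in the stimulated conditions and 1.86% in rested cells. Among cells of 1000 to under 2000 UMIs the mt-encoded share was 3.25 to 6.90% in the stimulated conditions, against 2.45% in rested cells. Among cells of 2000 to under 4000 UMIs it was 1.98 to 2.27% in stimulated cells, against 2.38% in 41 rested cells, and among cells of 8000 to under 16000 UMIs it was 1.48 to 1.67% in stimulated cells, where only 1 rested cell fell. When every cell was thinned to 500 UMIs, so that each counted alike, the mt-encoded share was 2.61% at 20 pmol M9C and 2.43% in rested cells, and the log2 ratio turned to 0.10, while at 20 pmol L6F it was 2.24%, a log2 ratio of -0.12. With the cells above 10% also left out, the thinned share was 1.69% at 20 pmol M9C, 1.90% at 20 pmol L6F and 2.43% in rested cells, log2 ratios of -0.52 and -0.36. Among cells of 1000 to 3000 UMIs the share was 2.46% at 20 pmol M9C, 2.75% at 20 pmol L6F and 2.43% in rested cells, so that both peptides lay above. With the cells above 10% left out of this range, 112 cells at 20 pmol M9C had 2.29%, 209 cells at 20 pmol L6F 2.51% and 453 rested cells 2.43%, so that M9C lay below rested cells and L6F above. The direction of the mt-encoded difference thus changed between these settings. The nuclear share at 20 pmol M9C was higher in the thinned cells and those of 1000 to 3000 UMIs, at 2.40% against 1.87% thinned, 2.45% against 1.87% thinned without the cells above 10%, and 2.33% against 1.96% among cells of 1000 to 3000 UMIs without them.

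**Figure D2:**
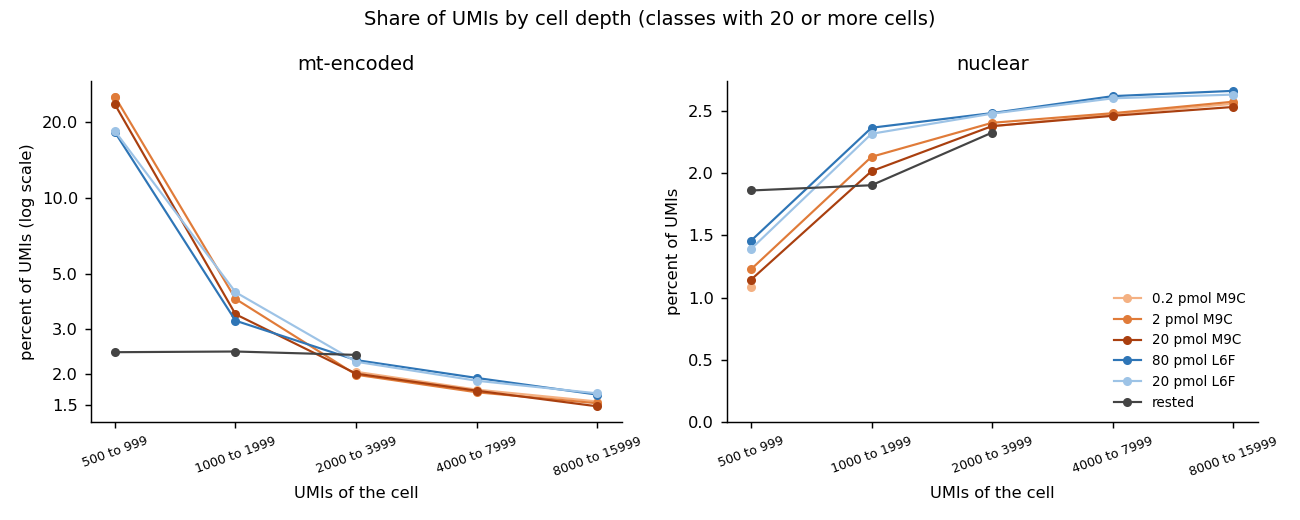
Share of UMIs from mt-encoded (left) and nuclear (right) respiratory chain genes by depth class of the cell, one line per condition; classes with under 20 cells are not drawn, which leaves out 0.2 pmol M9C at 1000 to under 2000 UMIs, rested cells from 4000 UMIs up and all conditions from 16000 UMIs up. At 500 to under 1000 UMIs the 5 stimulated conditions stand at 18.3 to 25.3% mt-encoded against 2.44% in rested cells, and from 2000 UMIs up they lie at or under 2.27%.

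Mitochondrial DNA codes for 13 proteins, and the transcripts are cut from long precursors. Neighbouring genes share bases in the GRCm38 sequence of GENCODE vM21: mt-Atp8 and mt-Atp6 share 43 bases, mt-Nd4l and mt-Nd4 share 7, both pairs being read from a single RNA, and mt-Nd5 and mt-Nd6 share 14 on opposite strands. The 2 longer same-strand overlaps are shown because reads there cannot be given to one gene, so that these pairs are uncertain as separate genes. The plus strand of chrM is printed with the shared bases in capitals, which begin with the start codon of mt-Atp6 and of mt-Nd4, and with 20 bases on either side.
mt-Atp8 and mt-Atp6 (chrM:7907-7989): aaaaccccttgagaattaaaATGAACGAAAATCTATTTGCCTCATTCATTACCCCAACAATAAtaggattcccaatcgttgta
mt-Nd4l and mt-Nd4 (chrM:10147-10193): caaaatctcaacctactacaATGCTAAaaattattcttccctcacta

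The catalytic core of complex IV was lower in CPM. mt-Co1 (chrM:5328-6872, plus strand, one uninterrupted coding gene), which carries the oxygen-reducing centre, had 2240.2, 2179 and 2231 CPM at 0.2, 2 and 20 pmol M9C, 2477 and 2480.1 CPM at 80 and 20 pmol L6F, and 4373 CPM in rested cells. All stimulated values were below the rested one, those of L6F above those of M9C. The log2 ratio at 20 pmol M9C to rested cells was -0.97 (95% interval -1.01 to -0.93). mt-Co2, which takes electrons from cytochrome c, had 1821, 1810.4 and 1818 CPM at 0.2, 2 and 20 pmol M9C, 2173 and 2129 CPM at 80 and 20 pmol L6F, and 3157 CPM in rested cells, and mt-Co3, the remaining core subunit, had 3049.8, 2979 and 2934 CPM at 0.2, 2 and 20 pmol M9C, 3623 and 3567 CPM at 80 and 20 pmol L6F, and 4861 CPM in rested cells. For these too the L6F conditions lay between the M9C conditions and rested cells. Their log2 ratios at 20 pmol M9C to rested cells were -0.80 (95% interval -0.84 to -0.75) and -0.73 (95% interval -0.76 to -0.69). With all 3 summed, the mt-encoded part of complex IV differed by -0.83 (-0.85 to -0.80) at 20 pmol M9C and by -0.60 (-0.62 to -0.58) at 20 pmol L6F. Among cells of 1000 to 3000 UMIs the log2 ratio of mt-Co1 was -0.46 at 20 pmol M9C and -0.26 at 20 pmol L6F, and that of mt-Co3 was -0.30 at 20 pmol M9C and turned to 0.099 at 20 pmol L6F. In the other choices of cells mt-Co1 at 20 pmol M9C ran from -1.04 to -0.47.

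The other mt-encoded transcripts did not move as one. mt-Cytb, the cytochrome b of complex III, had 1733, 1711 and 1744 CPM at 0.2, 2 and 20 pmol M9C, 1831 and 1789.6 CPM at 80 and 20 pmol L6F, and 2477 CPM in rested cells, a log2 ratio of -0.51 (95% interval -0.56 to -0.46) at 20 pmol M9C. It was lower in all stimulated conditions. Of the 7 complex I subunits, mt-Nd1, at the junction of its membrane and matrix arms, had 1564, 1582 and 1569 CPM at 0.2, 2 and 20 pmol M9C, 1685 and 1693 CPM at 80 and 20 pmol L6F, and 1321 CPM in rested cells, with a log2 ratio of 0.25 (95% interval 0.18 to 0.32). This gene was higher in all 5. The antiporter-like subunits were lower: mt-Nd2 (1466 CPM at 20 pmol M9C against 1745 CPM in rested cells, log2 ratio -0.25), mt-Nd4 (1304 CPM at 20 pmol M9C against 1797 CPM in rested cells, -0.46) and mt-Nd5 (399 CPM at 20 pmol M9C against 449 CPM in rested cells, -0.17). The low-count mt-Nd3 (127 CPM at 20 pmol M9C against 68.9 CPM in rested cells, 0.88) and mt-Nd4l (120.2 CPM at 20 pmol M9C against 99.7 CPM in rested cells, 0.27) were higher. mt-Nd6, the one gene of these read from the other strand, had 24.1 CPM at 20 pmol M9C against 47.5 CPM in rested cells, a log2 ratio of -0.98 (95% interval -1.35 to -0.58). In complex V, mt-Atp6, the proton channel subunit, had 3258 CPM at 20 pmol M9C against 3847 CPM in rested cells (-0.24), and mt-Atp8, a short subunit of the stalk, 145 CPM at 20 pmol M9C against 72.9 CPM in rested cells (0.99, 95% interval 0.71 to 1.29). Both genes lie on 1 RNA and share the bases shown, and the part of read assignment in their opposite signs was not tested.

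At 2-fold, the threshold of a call here (at least 10 CPM in either condition, 2-fold, and an interval that excludes equality), 0 of 13 mt-encoded genes were higher and 0 lower at 20 pmol M9C, where 18% and 16.7% of all 7846 genes were. mt-Atp8, mt-Co1 and mt-Nd6 lay just inside 2-fold at log2 ratios of 0.99, -0.97 and -0.98, so the count moved with scaling and with the cells used. With TMM factors (a trimmed-mean scaling) 2 were higher, beside 22.3% of all genes, and with the cells above 10% mitochondrial left out 2 were lower, beside 16.8%. By interval alone 4 were higher and 9 lower, beside 36.9% and 30.5% of all genes. At 20 pmol L6F 0 and 0 were past 2-fold (all genes 15.7% and 14.6%), and 3 were higher and 9 lower by interval, beside 34.9% and 30.3% of all genes.

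The make-up of the mitochondrial RNA, as shares of mt-encoded UMIs, leaves scaling aside. mt-Co1 was 13.02, 12.8 and 13.02% of them at 0.2, 2 and 20 pmol M9C, 13.1 and 13.3% at 80 and 20 pmol L6F, and 18.0% in rested cells. mt-Nd1 was 9.09, 9.26 and 9.15% at the M9C doses, 8.90 and 9.08% at the L6F doses, and 5.43% in rested cells. For both genes all stimulated shares lay on one side of the rested share. The same held for every other mt-encoded gene except mt-Nd4 (7.24 to 7.61% in stimulated conditions, 7.39% in rested cells). mt-Atp6 was 19.0% at 20 pmol M9C and 15.8% in rested cells, mt-Co2 10.6% and 12.98%, and mt-Co3 17.1% and 19.99%. mt-Cytb had nearly the same share in both, 10.2% at 20 pmol M9C and 10.2% in rested cells. Among cells of 1000 to 3000 UMIs and at most 10% mitochondrial, mt-Co1 held 13.3% at 20 pmol M9C and 18.0% in rested cells, and mt-Nd1 8.37% and 5.60%. Both genes thus kept their direction in this range, but depth was not matched within it. Before the 10% limit, 418 of its 453 rested cells and 31 of its 114 cells at 20 pmol M9C had under 2000 UMIs. The low-count mt-Nd6, at 0.141% at 20 pmol M9C and 0.195% in rested cells over all cells, stood at 0.218% and 0.217% there.

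**Figure D3:**
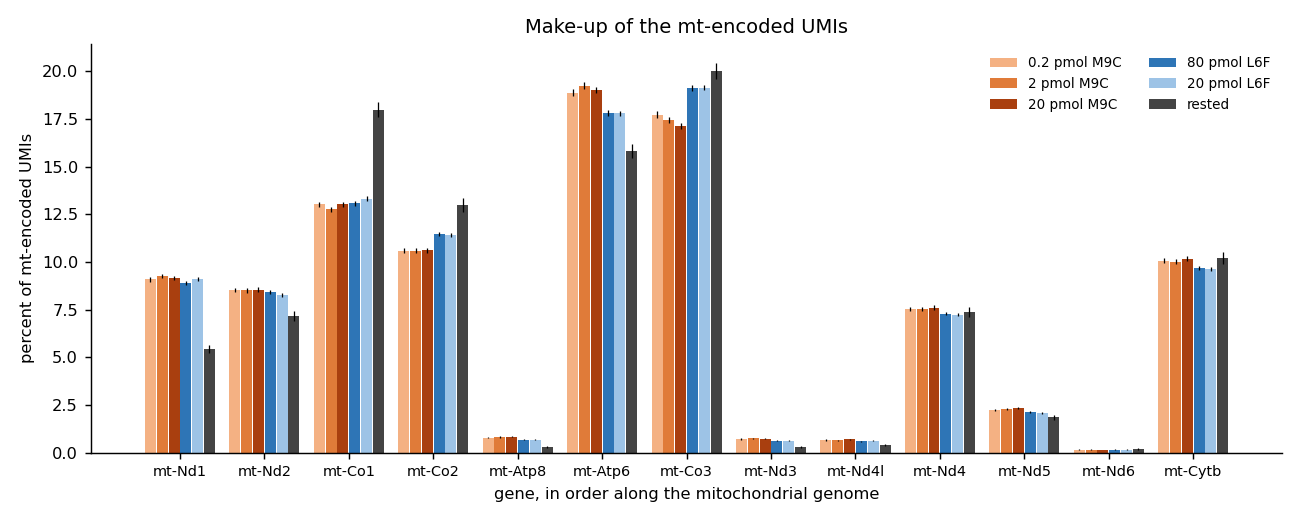
Share of each of the 13 mt-encoded genes in the mt-encoded UMIs of each condition, in percent, with exact 95% counting intervals. mt-Co1 lies between 12.8 and 13.3% in stimulated cells against 18.0% in rested cells, and mt-Nd1 between 8.90 and 9.26% against 5.43%.

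The nuclear genes were mostly higher. Of 93, 85 reached 10 CPM in either condition, and at 20 pmol M9C 6 were called at least 2-fold higher and 2 lower than in rested cells (7.06% and 2.35% of them), against 18% and 16.7% of all genes. Fewer nuclear members than genes at large thus passed 2-fold in either direction. By interval alone 56 were higher and 10 lower (65.9% and 11.8%), beside 36.9% and 30.5% of all genes. Many members are high-count genes with narrow counting intervals, so that small differences pass. In none of the shares given beside members were genes of like counts picked out. The median log2 ratio of the 85 members was 0.43, beside 0.09 over all genes tested. TMM factors add 0.14 to every log2 ratio and took the split to 14 higher and 2 lower, beside 22.3% and 14.2% of all genes. At 1.5-fold 29 were higher and 4 lower, beside 29.9% and 25.4% of all genes. At 20 pmol L6F, against the same rested cells, 10 were higher and 1 lower (all genes 15.7% and 14.6%), 65 higher and 8 lower by interval (34.9% and 30.3% of all genes), with a median of 0.48 beside 0.06, and with TMM factors 18 higher and 1 lower, beside 20.3% and 11.7%. At 1.5-fold 32 were higher and 3 lower, beside 27.6% and 24.3%.

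**Figure D4:**
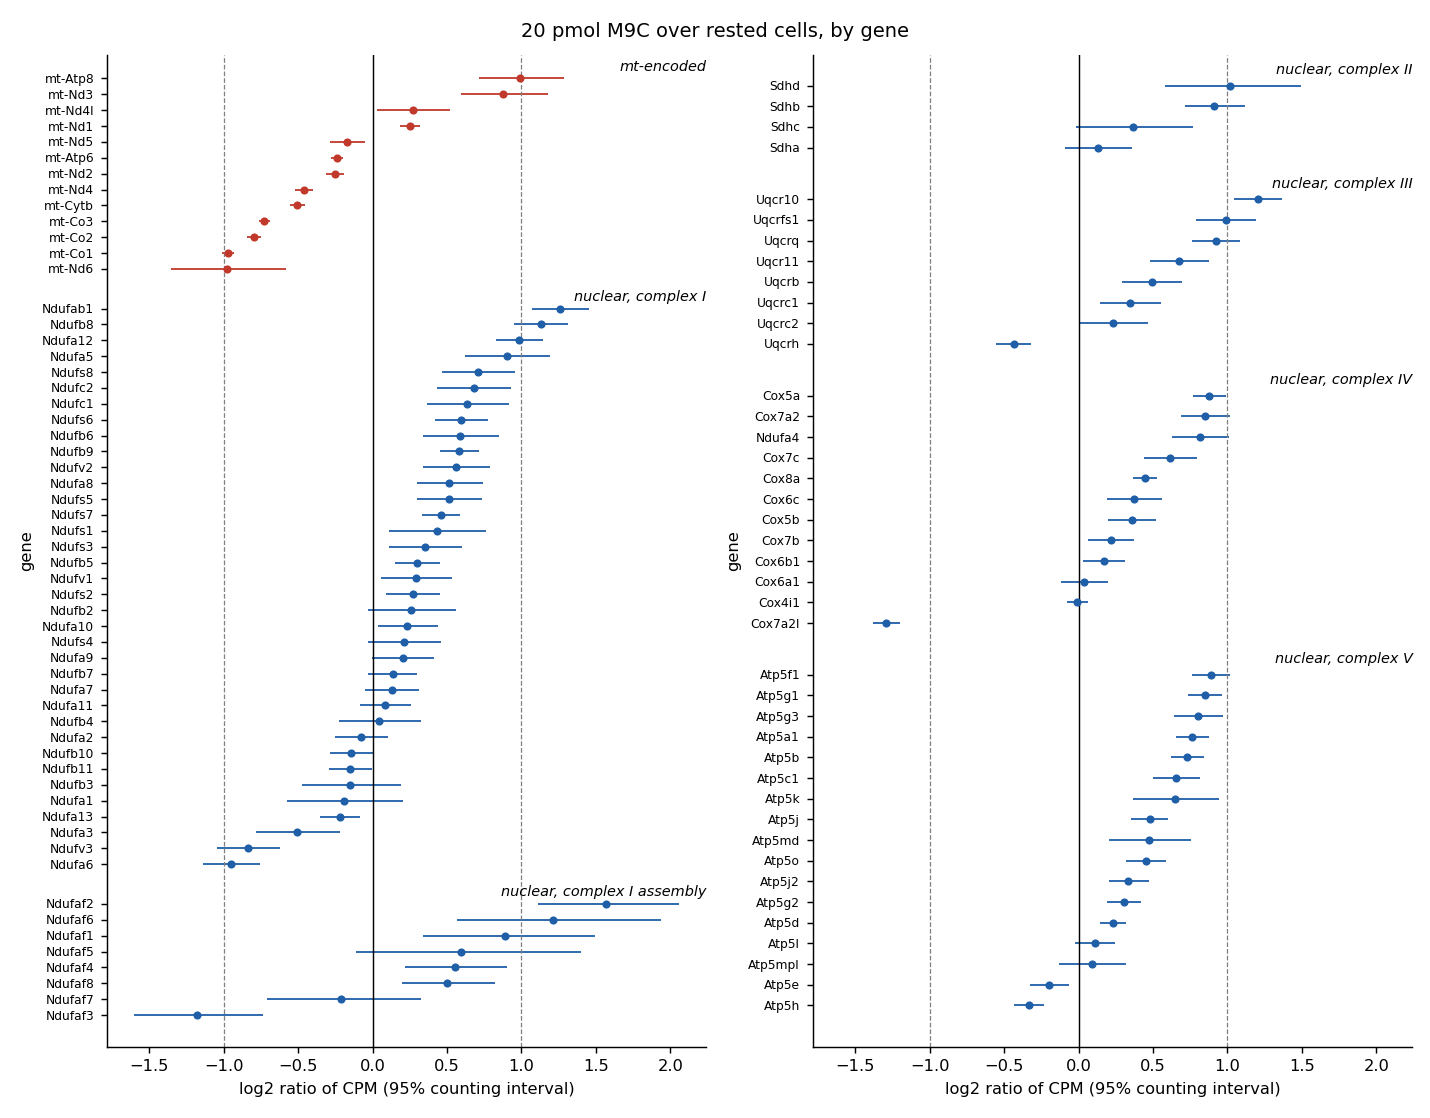
Log2 CPM ratio of 20 pmol M9C to rested cells for each measured respiratory chain gene, by complex and by genome, with 95% counting intervals; dashed lines mark 2-fold. Most nuclear points lie above 0, with Ndufaf2 at 1.57 the highest and Cox7a2l at -1.29 the lowest, and the mt-encoded complex IV genes lie at -0.97 to -0.73.

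Complex I has the most nuclear members, 36, which summed to 7252 CPM at 20 pmol M9C against 5766 CPM in rested cells, a log2 ratio of 0.33 (0.30 to 0.36), with 2 called higher and 0 lower. Ndufab1 (chr7:122085403-122101886), the mitochondrial acyl carrier protein that also sits in complex I, had 396, 397 and 377 CPM at 0.2, 2 and 20 pmol M9C, 382 and 390.3 CPM at 80 and 20 pmol L6F, and 157 CPM in rested cells. Its stimulated values were all more than 2-fold above the rested one, with a log2 ratio of 1.26 (95% interval 1.07 to 1.46) at 20 pmol M9C. Ndufb8 (chr19:44548572-44555440), an accessory subunit of the membrane arm, had 375, 397 and 380.4 CPM at 0.2, 2 and 20 pmol M9C, 383 and 382 CPM at 80 and 20 pmol L6F, and 174 CPM in rested cells, a log2 ratio of 1.13 (95% interval 0.95 to 1.31). Ndufa12, another accessory subunit, ran just under 2-fold, at 446 to 467 CPM over the 5 stimulated conditions, against 233 CPM in rested cells (0.99). Ndufb9 and Ndufs7, a core subunit with an iron-sulfur cluster, were the other high-count members, at 529 to 557 CPM over the 5 stimulated conditions, against 356 CPM in rested cells, and 476 to 499.5 CPM over the 5 stimulated conditions, against 346 CPM in rested cells. Ndufa1, Ndufa7, Ndufa9 and Ndufb2, accessory subunits, had intervals that included equality, with log2 ratios of -0.19, 0.13, 0.20 and 0.26.

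A few complex I subunits went the other way. Ndufa6, an accessory subunit that binds the acyl carrier protein, had 96.0, 94.8 and 97.2 CPM at 0.2, 2 and 20 pmol M9C, 110.2 and 109 CPM at 80 and 20 pmol L6F, and 188 CPM in rested cells. All stimulated values were below the rested one, with a log2 ratio of -0.95 (95% interval -1.14 to -0.76), just inside 2-fold. Ndufv3, an accessory subunit of the NADH-oxidising module, had 81.9, 78.9 and 83.5 CPM at 0.2, 2 and 20 pmol M9C, 117 and 113 CPM at 80 and 20 pmol L6F, and 149 CPM in rested cells. Here M9C cells were lowest, L6F cells between and rested cells highest, and the log2 ratio at 20 pmol M9C was -0.84 (95% interval -1.05 to -0.62). Ndufa6 and Ndufab1, which meet in the complex, thus differed from rested cells in opposite directions.

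The 8 Ndufaf genes, which code for factors that help assemble complex I and are not part of it, gave 2 higher and 1 lower. Ndufaf2 (chr13:108002715-108158623) had 80.3, 83.3 and 79.2 CPM at 0.2, 2 and 20 pmol M9C, 70.5 and 71.7 CPM at 80 and 20 pmol L6F, and 26.8 CPM in rested cells, the highest ratio of all nuclear members at 20 pmol M9C (1.57, 95% interval 1.11 to 2.06). Ndufaf6 had 31.0 CPM at 20 pmol M9C against 13.4 CPM in rested cells (1.21, 95% interval 0.57 to 1.94). Both were higher in all 5 stimulated conditions. Ndufaf3 had 19.5, 18.2 and 17.1 CPM at 0.2, 2 and 20 pmol M9C, 20.2 and 20.6 CPM at 80 and 20 pmol L6F, and 38.8 CPM in rested cells (-1.18, 95% interval -1.60 to -0.74), lower in all 5. Ndufaf8, Ndufaf4 and Ndufaf1 had log2 ratios of 0.50, 0.55 and 0.89, and the intervals of Ndufaf5 (0.60, 95% interval -0.11 to 1.40) and Ndufaf7 (-0.21, 95% interval -0.71 to 0.32) included equality. These are low-count genes: 58 and 20 UMIs of Ndufaf3 and Ndufaf6 were found in rested cells. Ndufaf3 is not tested at a minimum of 50 CPM, which leaves 1 nuclear member called lower.

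All 4 subunits of complex II lay above rested cells in CPM, the sum at 517 CPM at 20 pmol M9C against 337 CPM in rested cells (log2 ratio 0.62, 0.49 to 0.75). Sdhb, the iron-sulfur subunit, had 265, 273 and 271 CPM at 0.2, 2 and 20 pmol M9C, 324 and 307 CPM at 80 and 20 pmol L6F, and 144 CPM in rested cells. The L6F conditions were the higher ones, and Sdhb passed 2-fold at 20 pmol L6F (1.10, 95% interval 0.90 to 1.30) and not at 20 pmol M9C (0.91, 95% interval 0.71 to 1.12). Sdhd, a membrane anchor, had 59.6 CPM at 20 pmol M9C against 29.4 CPM in rested cells (1.02, 95% interval 0.58 to 1.49). The intervals of Sdha, the flavoprotein (135 CPM at 20 pmol M9C against 124 CPM in rested cells, 0.13, 95% interval -0.09 to 0.36), and of Sdhc, the other anchor (51.6 CPM at 20 pmol M9C against 40.1 CPM in rested cells, 0.36, 95% interval -0.02 to 0.77), included equality.

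In complex III the 8 nuclear members summed to 2347 CPM at 20 pmol M9C against 1617 CPM in rested cells (0.54, 0.48 to 0.60), and mt-Cytb, their mitochondrial partner, was lower. Uqcr10, a small subunit, had 556, 526 and 531 CPM at 0.2, 2 and 20 pmol M9C, 544 and 539.7 CPM at 80 and 20 pmol L6F, and 231 CPM in rested cells, a log2 ratio of 1.203 (95% interval 1.05 to 1.36). It was more than 2-fold above rested cells in every stimulated condition. Uqcrfs1, the Rieske iron-sulfur protein, had 269 to 290.2 CPM over the 5 stimulated conditions, against 142 CPM in rested cells (0.99 at 20 pmol M9C and 1.01 at 20 pmol L6F), and Uqcrq, another small subunit, 422 to 434 CPM over the 5 stimulated conditions, against 225 CPM in rested cells (0.92). Uqcr11 and Uqcrb, further small subunits, had log2 ratios of 0.68 and 0.49. Uqcrc2, a core protein, differed less, at 134 CPM at 20 pmol M9C against 114 CPM in rested cells (0.23). Uqcrh, the acidic hinge protein next to cytochrome c1, was the exception, with 335, 341 and 342 CPM at 0.2, 2 and 20 pmol M9C, 362 and 353 CPM at 80 and 20 pmol L6F, and 463 CPM in rested cells (-0.44, 95% interval -0.55 to -0.32).

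In complex IV the 20 nuclear members summed to 6114 CPM at 20 pmol M9C against 5299 CPM in rested cells, a log2 ratio of 0.21 (0.17 to 0.24), beside -0.83 for its mt-encoded core. Cox5a, which surrounds the core, had 913, 902 and 860.1 CPM at 0.2, 2 and 20 pmol M9C, 958 and 964 CPM at 80 and 20 pmol L6F, and 467 CPM in rested cells (0.88, 95% interval 0.77 to 0.99 at 20 pmol M9C and 1.04 at 20 pmol L6F). Cox8a had 1296 to 1369 CPM over the 5 stimulated conditions, against 957 CPM in rested cells (0.45), and Cox7a2 379.9 to 406 CPM over the 5 stimulated conditions, against 223 CPM in rested cells (0.85). Cox7c, Cox6c and Cox5b had log2 ratios of 0.61, 0.37 and 0.36, and that of Cox6a1 included equality (0.04, 95% interval -0.12 to 0.20). Cox4i1, the subunit through which ATP is known to regulate the enzyme, did not stand apart, with 1226, 1258 and 1194 CPM at 0.2, 2 and 20 pmol M9C, 1215 and 1182 CPM at 80 and 20 pmol L6F, and 1199.8 CPM in rested cells, and its interval at 20 pmol M9C included equality (-0.01, 95% interval -0.08 to 0.06). Cox7a2l (chr17:83501918-83517330), which joins complexes III and IV into supercomplexes rather than serving in the free enzyme, had 356, 366 and 360.3 CPM at 0.2, 2 and 20 pmol M9C, 401 and 389 CPM at 80 and 20 pmol L6F, and 882 CPM in rested cells. The rested value was more than 2-fold above every stimulated one, the lowest log2 ratio of the nuclear members (-1.29, 95% interval -1.38 to -1.20 at 20 pmol M9C, -1.18, 95% interval -1.27 to -1.09 at 20 pmol L6F). Over all choices of cells and scaling other than UMIs per cell its log2 ratio at 20 pmol M9C ran from -1.51 to -1.15.

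The isoforms of complex IV known from other tissues were nearly absent in all 6 conditions. All 8 nuclear members under 10 CPM were such genes. Cox7b2, Cox8b and Cox8c had no UMI in any assigned cell, which allows up to 0.187 to 0.263 CPM by stimulated condition and 2.01 CPM in rested cells (3 counts of the total). Cox4i2, Cox6a2, Cox7a1 and Ndufa4l2 had at most 0.2496, 0.175, 0.935 and 0.0623 CPM in any condition, and Cox6b2 at most 4.01 CPM. At counts this low a difference between conditions was not detectable at this depth. Cox6a2, Cox7a1 and Cox8b are the heart and muscle forms, and Cox6b2, Cox7b2 and Cox8c are known from testis. Their common forms were found in all conditions, among them Cox6a1 at 251 to 288 CPM over the 5 stimulated conditions, against 247 CPM in rested cells, Cox6b1 at 336 to 353 CPM over the 5 stimulated conditions, against 300.3 CPM in rested cells, Cox7b at 302 to 326 CPM over the 5 stimulated conditions, against 260.2 CPM in rested cells and Ndufa4 at 284 to 306 CPM over the 5 stimulated conditions, against 161 CPM in rested cells.

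In complex V the 17 nuclear members summed to 8230 CPM at 20 pmol M9C against 6093 CPM in rested cells (log2 ratio 0.43, 0.40 to 0.46), with 0 past 2-fold in either direction. Atp5a1, the alpha subunit of the catalytic head, had 810.4, 807 and 794 CPM at 0.2, 2 and 20 pmol M9C, 852 and 874 CPM at 80 and 20 pmol L6F, and 468 CPM in rested cells (0.76, 95% interval 0.65 to 0.88). Atp5f1, subunit b of the stalk, had 658 to 689.9 CPM over the 5 stimulated conditions, against 359.8 CPM in rested cells (0.89), and Atp5d, the delta subunit of the rotor, 938 to 963 CPM over the 5 stimulated conditions, against 799.9 CPM in rested cells (0.23). The ring subunit c is one mature protein coded by 3 genes. Atp5g1 had 806 CPM at 20 pmol M9C against 447 CPM in rested cells (0.85), Atp5g2 579.9 CPM at 20 pmol M9C against 469 CPM in rested cells (0.30) and Atp5g3 374 CPM at 20 pmol M9C against 215 CPM in rested cells (0.80), so that all 3 were higher. Atp5k, Atp5md and Atp5j, membrane and stalk subunits, had log2 ratios of 0.65, 0.48 and 0.48. Atp5h, subunit d of the stalk, was lower at 500.1, 509.7 and 484 CPM at 0.2, 2 and 20 pmol M9C, 544 and 542 CPM at 80 and 20 pmol L6F, and 611 CPM in rested cells (-0.33, 95% interval -0.43 to -0.23), as was Atp5e, the epsilon subunit, at 319 CPM at 20 pmol M9C against 366 CPM in rested cells (-0.20, 95% interval -0.33 to -0.06).

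The promoters of nuclear members were searched for 3 short motifs that are known from respiratory genes: GCATGCGC, a core of the site of nuclear respiratory factor NRF1, CCGGAAGT, a site of ETS family factors such as GABPA, and AAGATGGC, a site of YY1. Windows of 250 bases before to 50 after the start, from RefSeq on GRCm38.p6, were matched for 75 of 93 nuclear members, and both strands were searched. GCATGCGC was in 12 of 75 (16%), against 2.80% of 27025 genes with a window and 3.61% of 17492 protein-coding ones. AAGATGGC was in 9 (12%), against 2.88% and 3.22%, and CCGGAAGT in 5 (6.67%), against 4% and 5.29%. The 12 members with GCATGCGC had a median log2 ratio at 20 pmol M9C of 0.43 (lowest -0.95, highest 0.91), and the 59 without it that reached 10 CPM had 0.45 (-1.29 to 1.57). The promoters of Sdhb and Ndufa6 are shown because they are the ends of that range, a gene higher and a gene lower in stimulated cells that share the motif, and that of Ndufb8 because it holds the YY1 letters and was called higher. No other member with AAGATGGC was called higher, and their log2 ratios ran from -0.51 (Ndufa3) to 0.64 (Ndufc1). Matches are in capitals, and each sequence runs in the direction of transcription.
Sdhb (chr4:140961021-140961320, + strand): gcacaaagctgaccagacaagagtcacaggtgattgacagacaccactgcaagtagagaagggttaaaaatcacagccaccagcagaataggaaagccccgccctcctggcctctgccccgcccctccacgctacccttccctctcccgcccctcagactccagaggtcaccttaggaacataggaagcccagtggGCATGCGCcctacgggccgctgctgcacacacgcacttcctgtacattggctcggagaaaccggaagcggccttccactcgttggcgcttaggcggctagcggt
Ndufa6 (chr15:82354242-82354541, - strand): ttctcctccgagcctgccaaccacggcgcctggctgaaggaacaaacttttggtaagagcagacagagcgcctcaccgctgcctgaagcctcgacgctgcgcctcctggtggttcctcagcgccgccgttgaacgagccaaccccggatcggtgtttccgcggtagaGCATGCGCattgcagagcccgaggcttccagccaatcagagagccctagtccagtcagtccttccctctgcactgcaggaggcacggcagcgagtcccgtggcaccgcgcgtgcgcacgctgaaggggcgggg
Ndufb8 (chr19:44555393-44555692, - strand): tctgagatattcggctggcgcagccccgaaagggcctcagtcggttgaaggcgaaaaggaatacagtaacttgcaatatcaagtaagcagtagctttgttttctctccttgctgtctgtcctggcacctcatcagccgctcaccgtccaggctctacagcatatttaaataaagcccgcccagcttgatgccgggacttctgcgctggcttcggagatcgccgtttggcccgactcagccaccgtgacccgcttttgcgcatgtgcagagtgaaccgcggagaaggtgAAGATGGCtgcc
A match is a string of letters and not a site shown to be bound.

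Other genes that serve the chain were counted from lists, whose calls at 20 pmol M9C stand beside 18% higher and 16.7% lower among all genes. Cycs, the cytochrome c that carries electrons from complex III to IV, had 445, 451 and 449 CPM at 0.2, 2 and 20 pmol M9C, 385 and 408 CPM at 80 and 20 pmol L6F, and 146 CPM in rested cells (1.62, 95% interval 1.43 to 1.82), and Cyc1, the cytochrome c1 of complex III, 344 CPM at 20 pmol M9C against 150.5 CPM in rested cells (1.19, 95% interval 1.00 to 1.39). Both were at least 2-fold higher in all 5 stimulated conditions. Of 24 measured assembly factors for complexes II to V 3 were higher (Sco1, Taco1 and Tmem70) and 3 lower (Sdhaf4, Cox20 and Pet100), with a median of 0.44. Of 6 for complex I outside the Ndufaf family 2 were higher (median 0.63), Nubpl, which delivers iron-sulfur clusters (13.1 CPM at 20 pmol M9C against 4.68 CPM in rested cells), and Foxred1 (20.7 CPM at 20 pmol M9C against 7.36 CPM in rested cells). Some of these calls rest on few UMIs in rested cells: 4 of Sco1, 7 of Nubpl and 11 of Foxred1. Their 95% intervals were wide, at 0.83 to 4.11, 0.41 to 2.82 and 0.63 to 2.52. Among 21 genes for the transcription, replication and RNA handling of mitochondrial DNA 7 were higher and 1, Fastkd1, was lower (median 0.71). Those that were higher were Pnpt1 (1.72), Fastkd3 (1.71), Tbrg4 (1.39), Elac2 (1.37), Slirp (1.36), Supv3l1 (1.33) and Top1mt (1.07). At 20 pmol L6F Top1mt was not called higher (0.71). Of 8 regulators of nuclear respiratory genes 0 were past 2-fold in either direction (median 0.23). Of 11 genes of mitochondrial mass and import 6 were higher and 0 lower (median 1.10), among them Tomm40, the import pore of the outer membrane (387 CPM at 20 pmol M9C against 113 CPM in rested cells), and Timm23, that of the inner membrane (455 CPM at 20 pmol M9C against 173 CPM in rested cells). The medians are log2 ratios of 20 pmol M9C to rested cells, beside 0.09 over all genes.

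M9C and L6F could be set side by side at 20 pmol, the only dose at which both were used. The mt-encoded sum was 17137 CPM at 20 pmol M9C and 18632 CPM at 20 pmol L6F, a log2 ratio of -0.12 (-0.13 to -0.11), and the nuclear sum 24826 and 25984 CPM, a log2 ratio of -0.07 (-0.07 to -0.06). No member reached 2-fold in either direction (0 of 85 nuclear and 0 of 13 mt-encoded, beside 0.883% and 0.74% of all 7024 genes). By interval 5 nuclear members were higher and 38 lower with M9C (5.88% and 44.7%), beside 21% and 17.8% of all genes, with a median log2 ratio of -0.06 beside 0.02. High-count genes such as these have narrow counting intervals, so that small differences pass. The mt-encoded sum was lower with M9C in all alternative cell choices but one, the thinning to 500 UMIs, where the log2 ratio was 0.22, and it returned to -0.17 when the cells above 10% mitochondrial were also left out.

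By interval 3 mt-encoded genes were higher and 9 lower with M9C. Among the summed mt-encoded parts the difference was largest in complex IV, at -0.23 (-0.24 to -0.22), beside -0.06 for mt-encoded complex I, -0.04 for mt-Cytb and -0.02 for complex V. mt-Co3 had 2934 CPM at 20 pmol M9C against 3567 CPM at 20 pmol L6F (-0.28, 95% interval -0.30 to -0.26), mt-Co2 1818 CPM at 20 pmol M9C against 2129 CPM at 20 pmol L6F (-0.23, 95% interval -0.25 to -0.20) and mt-Co1 2231 CPM at 20 pmol M9C against 2480.1 CPM at 20 pmol L6F (-0.15, 95% interval -0.17 to -0.13). Thinned to 500 UMIs, these turned to 0.035 for mt-Co3, 0.19 for mt-Co2 and 0.12 for mt-Co1, and with the cells above 10% mitochondrial also left out they were -0.38, -0.20 and -0.22. In complex I mt-Nd6 stood at -0.25. As shares of mt-encoded UMIs, mt-Co3 was 17.1% at 20 pmol M9C and 19.1% at 20 pmol L6F, and mt-Co2 10.6% and 11.4%. The share of mt-Co3 was 17.1 to 17.7% over the 3 M9C conditions and 19.1% in both L6F conditions. A split of this kind was not particular to mt-Co3, and for some mt-encoded genes it was very narrow. For mt-Nd1 it was 9.09% at 0.2 pmol M9C against 9.08% at 20 pmol L6F, with overlapping intervals. How often genes at large split in this way was not counted. mt-Atp8 (145 CPM at 20 pmol M9C against 127 CPM at 20 pmol L6F, 0.19, 95% interval 0.10 to 0.28) and mt-Nd3 (127 CPM at 20 pmol M9C against 115 CPM at 20 pmol L6F, 0.14, 95% interval 0.04 to 0.23) were higher with M9C.

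Among nuclear members Ndufv3 differed most between the peptides, with 83.5 CPM at 20 pmol M9C against 113 CPM at 20 pmol L6F (-0.44, 95% interval -0.55 to -0.33). Its 3 M9C values of 78.9 to 83.5 CPM and its pair of L6F values of 113 and 117 CPM did not overlap. Other members also showed this, such as Cox5b (294 to 309 CPM with M9C, 315 and 333 CPM with L6F). The share of all genes that did so was not counted. Under all other choices of cells and scaling except UMIs per cell, the log2 ratio of Ndufv3 ran from -1.14 to -0.43. Ndufb2 (84.8 CPM at 20 pmol M9C against 101 CPM at 20 pmol L6F, -0.25, 95% interval -0.37 to -0.14), Sdhb (271 CPM at 20 pmol M9C against 307 CPM at 20 pmol L6F, -0.18, 95% interval -0.25 to -0.12) and Cox6a1 (254 CPM at 20 pmol M9C against 288 CPM at 20 pmol L6F, -0.18, 95% interval -0.25 to -0.12) were lower with M9C. Ndufaf1, an assembly factor, was the highest of those with an interval above 0 (34.7 CPM at 20 pmol M9C against 30.4 CPM at 20 pmol L6F, 0.19, 95% interval 0.01 to 0.38), followed by Ndufaf2 (0.14, 95% interval 0.02 to 0.27), Ndufa7 (0.10, 95% interval 0.02 to 0.17), Cox7c (0.09, 95% interval 0.02 to 0.15) and Cox7a2 (0.08, 95% interval 0.03 to 0.13). For Ndufab1, Ndufb8 and Uqcr10, which were called higher than in rested cells with both peptides, the log2 ratios of M9C to L6F were -0.05 (95% interval -0.11 to 0.00), 0.00 (95% interval -0.06 to 0.05) and -0.02 (95% interval -0.07 to 0.02).

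**Figure D5:**
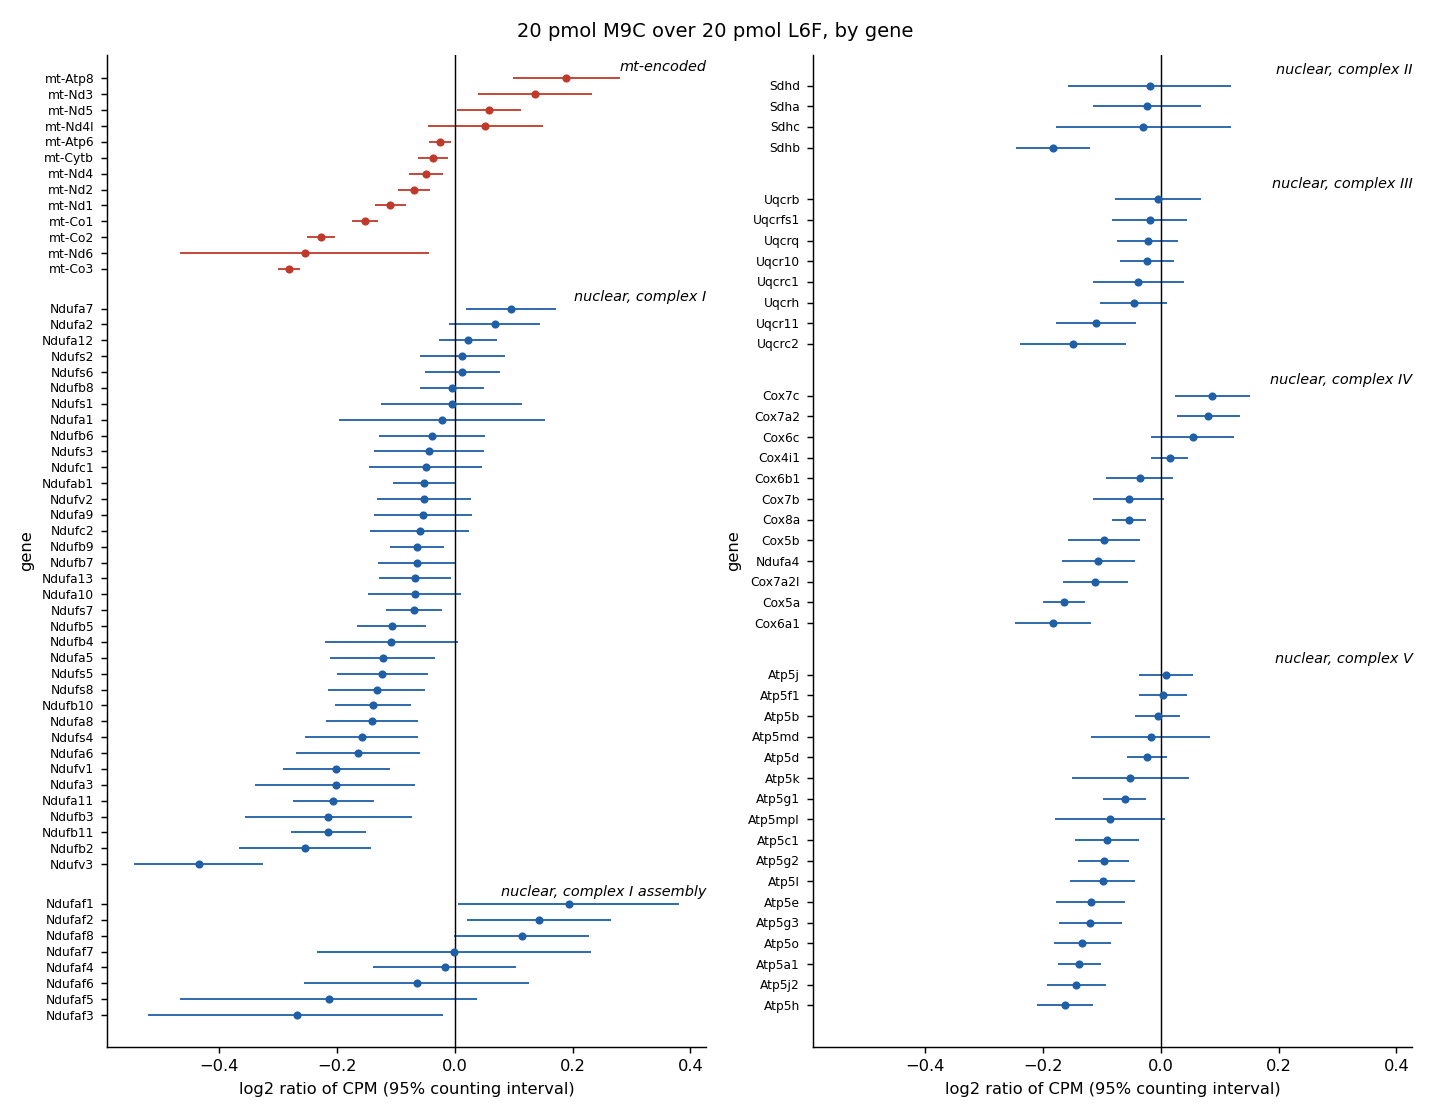
Log2 CPM ratio of 20 pmol M9C to 20 pmol L6F for each measured respiratory chain gene, by complex and by genome, with 95% counting intervals. All points lie within 2-fold, with Ndufv3 at -0.44 the lowest and mt-Co3 at -0.28 the lowest of the mt-encoded genes.

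Within either peptide the respiratory genes differed little between doses. From 0.2 over 2 to 20 pmol M9C the mt-encoded sum was 17208, 17081 and 17137 CPM and the nuclear sum 25085, 25186 and 24826 CPM. At 20 against 0.2 pmol M9C the log2 ratios were -0.01 (-0.01 to 0.00) and -0.01 (-0.02 to -0.01). No member passed 2-fold (all genes 0.272% higher and 0.143% lower), and by interval 3 of 85 nuclear members were higher and 9 lower, beside 8.66% and 8.14% of all genes. The mt-encoded genes with intervals under 0 were mt-Nd6 (-0.23, 95% interval -0.46 to -0.00092) and mt-Co3 (-0.06, 95% interval -0.08 to -0.03), and Ndufaf4, an assembly factor of complex I, was the lowest nuclear member, with 87.9, 81.9 and 76.5 CPM at 0.2, 2 and 20 pmol (-0.20, 95% interval -0.33 to -0.07). At 80 against 20 pmol L6F the log2 ratios of the sums were 0.02 (0.02 to 0.03) and 0.01 (0.00 to 0.02), and 0 members and 0 genes of all passed 2-fold (0% and 0%). By interval 7 of 13 mt-encoded genes were higher and 0 lower, the 7 by 0.02 to 0.07, and 9 nuclear members were higher and 5 lower, beside 6.8% and 8.05% of all genes, Ndufa9 being the highest (0.10, 95% interval 0.02 to 0.18) and Ndufb2 the lowest (-0.16, 95% interval -0.27 to -0.05). The counting intervals of all these sums are under 0.05 log2 units wide, but with 1 culture per dose the spread between cultures is unknown.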

How the data were processed

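The submitters' processing notes name bcl2fastq, Cell Ranger 6.0.1 and the build GRCm38; which annotation was counted is not given in the sources used here, nor how empty droplets were removed. The deposited matrix holds raw UMI counts of genes and of 6 hashtags over 13439 barcodes, the lowest with 500.0 gene UMIs, and a deposited text gives each hashtag's condition. Barcodes were assigned by hashtag counts alone, at least 20 counts and 80% for the top hashtag, and 1768 (13.2%) were left out, most of them with several hashtags. Doublets within 1 condition cannot be seen this way, and no other caller was run. No filter on genes or mitochondrial share was set, since the members make up that share. UMIs were summed per condition (1495231 in rested cells, 11410243 to 16041955 in stimulated ones), scaled to CPM of all gene UMIs, and compared as log2 ratios with exact 95% intervals for counting error. Levels are not corrected for gene length and are not compared between genes. The floor of 3 counts is 0.187 to 0.263 CPM in stimulated conditions and 2.01 CPM in rested cells. A call needs 10 CPM in either condition, 2-fold and an interval excluding equality; it was tested on simulated data. With 1 culture per condition no model was fitted across genes; edgeR 4.0.16 gave TMM factors only. The members, gene lists and naming rule were chosen with earlier results of these data known. Named were all mt-encoded genes, and per complex the 3 highest members and the extremes of each comparison, plus isoform sets. Genes with near-identical copies or pseudogenes are uncertain where reads could be split. Python 3.11.15, numpy 2.4.6, scipy 1.17.1 and pandas 2.3.3 were used. Alternatives were other hashtag, depth, gene number and mitochondrial filters, thinning to 500 UMIs, other scalings and other thresholds.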

Additional observations from a re-analysis of the deposited data

How the results depend on the processing

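No paired analysis was possible because each condition was 1 culture with no replicate numbers. The nuclear sum stayed above rested cells with both peptides in all 12 alternatives for sums. The mt-encoded sum at 20 pmol M9C turned above rested cells in UMIs per cell, thinned to 500 UMIs and among cells of 1000 to 3000 UMIs, and that at 20 pmol L6F in UMIs per cell and among cells of 1000 to 3000 UMIs, with the 10% limit as well as without it; the cause was not tested beyond the cell filters given. Intervals omit the spread between cultures, and the rested condition, with the fewest UMIs, limits precision. Values below are log2 ratios for sums and genes, and counts of members past the call threshold. M9C and L6F stand for 20 pmol unless another dose is named. The share of all genes called was not computed for most settings, so these counts show only how the calls moved. UMIs per cell shift every gene's log2 ratio to rested cells by 2.82 (M9C) and 2.76 (L6F). The median gene then lies at 2.92 and 2.82, so the member counts under that scale are not particular to the members. Settings added after seeing the data were the 10% limit alone, both thinnings, the 1000 to 3000 UMI cells with that limit and the removal of cells with other types' markers.

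A 1.5-fold call gave higher nuclear counts of 29 (M9C against rested cells) and 32 (L6F against rested cells), lower nuclear counts of 4 (M9C against rested cells) and 3 (L6F against rested cells), higher mt-encoded counts of 2 (M9C against rested cells) and 2 (L6F against rested cells). Under it came lower mt-encoded counts of 4 (M9C against rested cells) and 2 (L6F against rested cells). A 50 CPM minimum gave lower nuclear counts of 1 (M9C against rested cells). TMM factors gave mt-encoded sums of -0.36 (M9C against rested cells), -0.22 (L6F against rested cells), -0.14 (M9C against L6F) and 0.015 (80 against 20 pmol L6F), nuclear sums of 0.50 (M9C against rested cells), 0.59 (L6F against rested cells), -0.088 (M9C against L6F) and 0.0023 (80 against 20 pmol L6F), higher nuclear counts of 14 (M9C against rested cells) and 18 (L6F against rested cells). This setting also gave higher mt-encoded counts of 2 (M9C against rested cells). UMIs per cell gave mt-encoded sums of 2.32 (M9C against rested cells), 2.37 (L6F against rested cells), -0.054 (M9C against L6F), -0.071 (20 against 0.2 pmol M9C) and -0.024 (80 against 20 pmol L6F), nuclear sums of 3.18 (M9C against rested cells), 3.18 (L6F against rested cells), 0.00081 (M9C against L6F), -0.080 (20 against 0.2 pmol M9C) and -0.037 (80 against 20 pmol L6F), higher nuclear counts of 85 (M9C against rested cells) and 85 (L6F against rested cells). It further gave lower nuclear counts of 0 (M9C against rested cells) and 0 (L6F against rested cells), higher mt-encoded counts of 13 (M9C against rested cells) and 13 (L6F against rested cells), Cox7a2l at 1.58 (L6F against rested cells) and 1.53 (M9C against rested cells). This setting also gave Ndufv3 at 2.35 (L6F against rested cells) and 1.98 (M9C against rested cells), mt-Co1 at 1.94 (L6F against rested cells) and 1.85 (M9C against rested cells), mt-Co2 at 2.19 (L6F against rested cells) and 2.03 (M9C against rested cells). It further gave mt-Co3 at 2.31 (L6F against rested cells) and 2.09 (M9C against rested cells). The 500 gene minimum together with the 10% limit gave mt-encoded sums of -0.58 (M9C against rested cells), -0.41 (L6F against rested cells), -0.17 (M9C against L6F) and -0.026 (20 against 0.2 pmol M9C), nuclear sums of 0.32 (M9C against rested cells) and 0.39 (L6F against rested cells), log2 nuclear-to-mitochondrial quotients of 0.012 (20 against 0.2 pmol M9C). It further gave higher nuclear counts of 6 (L6F against rested cells), higher mt-encoded counts of 1 (M9C against rested cells), lower mt-encoded counts of 2 (M9C against rested cells). Requiring 500 genes gave mt-encoded sums of -0.57 (M9C against rested cells), -0.40 (L6F against rested cells), -0.17 (M9C against L6F) and -0.031 (20 against 0.2 pmol M9C), nuclear sums of 0.32 (M9C against rested cells) and 0.39 (L6F against rested cells), log2 nuclear-to-mitochondrial quotients of 0.017 (20 against 0.2 pmol M9C). This setting also gave higher nuclear counts of 6 (L6F against rested cells), higher mt-encoded counts of 1 (M9C against rested cells), lower mt-encoded counts of 1 (M9C against rested cells). Leaving out cells above 10% mitochondrial gave mt-encoded sums of -0.58 (M9C against rested cells), -0.41 (L6F against rested cells), -0.17 (M9C against L6F) and -0.026 (20 against 0.2 pmol M9C), log2 nuclear-to-mitochondrial quotients of 0.012 (20 against 0.2 pmol M9C), lower mt-encoded counts of 2 (M9C against rested cells). Thinning to 500 UMIs gave mt-encoded sums of 0.10 (M9C against rested cells), -0.12 (L6F against rested cells), 0.22 (M9C against L6F), 0.11 (20 against 0.2 pmol M9C) and 0.0034 (80 against 20 pmol L6F), nuclear sums of 0.47 (L6F against rested cells), -0.10 (M9C against L6F), -0.035 (20 against 0.2 pmol M9C) and -0.0034 (80 against 20 pmol L6F), log2 nuclear-to-mitochondrial quotients of -0.33 (M9C against L6F). The same setting gave higher nuclear counts of 10 (M9C against rested cells), higher mt-encoded counts of 2 (M9C against rested cells) and 2 (L6F against rested cells), mt-Co1 at 0.12 (M9C against L6F). Under it came mt-Co2 at 0.19 (M9C against L6F), mt-Co3 at 0.035 (M9C against L6F), mt-Nd1 at 0.19 (M9C against L6F). Thinning without cells above 10% gave mt-encoded sums of -0.52 (M9C against rested cells), -0.36 (L6F against rested cells), -0.17 (M9C against L6F), -0.033 (20 against 0.2 pmol M9C) and 0.033 (80 against 20 pmol L6F), nuclear sums of 0.39 (M9C against rested cells), 0.48 (L6F against rested cells), -0.087 (M9C against L6F), -0.029 (20 against 0.2 pmol M9C) and -0.0054 (80 against 20 pmol L6F), log2 nuclear-to-mitochondrial quotients of 0.0036 (20 against 0.2 pmol M9C). It further gave higher nuclear counts of 12 (M9C against rested cells), higher mt-encoded counts of 2 (M9C against rested cells) and 1 (L6F against rested cells), lower mt-encoded counts of 1 (M9C against rested cells). Cells of 1000 to 3000 UMIs gave mt-encoded sums of 0.018 (M9C against rested cells), 0.18 (L6F against rested cells), -0.16 (M9C against L6F), -0.12 (20 against 0.2 pmol M9C) and -0.12 (80 against 20 pmol L6F), nuclear sums of 0.24 (M9C against rested cells), 0.33 (L6F against rested cells), -0.090 (M9C against L6F) and 0.0089 (20 against 0.2 pmol M9C), log2 nuclear-to-mitochondrial quotients of 0.13 (20 against 0.2 pmol M9C) and 0.13 (80 against 20 pmol L6F). This setting also gave higher nuclear counts of 5 (L6F against rested cells), lower nuclear counts of 4 (M9C against rested cells), 2 (L6F against rested cells), 1 (M9C against L6F) and 1 (20 against 0.2 pmol M9C), higher mt-encoded counts of 3 (M9C against rested cells) and 3 (L6F against rested cells). It further gave mt-Co3 at 0.099 (L6F against rested cells). Cells of 1000 to 3000 UMIs at most 10% mitochondrial gave mt-encoded sums of -0.080 (M9C against rested cells), 0.051 (L6F against rested cells), -0.13 (M9C against L6F), 0.098 (20 against 0.2 pmol M9C) and -0.064 (80 against 20 pmol L6F), nuclear sums of 0.25 (M9C against rested cells), 0.34 (L6F against rested cells), -0.092 (M9C against L6F) and -0.0042 (20 against 0.2 pmol M9C), log2 nuclear-to-mitochondrial quotients of 0.073 (80 against 20 pmol L6F). The same setting gave higher nuclear counts of 6 (L6F against rested cells), lower nuclear counts of 4 (M9C against rested cells), 2 (L6F against rested cells), 1 (M9C against L6F) and 1 (20 against 0.2 pmol M9C), higher mt-encoded counts of 3 (M9C against rested cells) and 1 (L6F against rested cells). A top hashtag of 50 counts and 90% gave mt-encoded sums of -0.59 (M9C against rested cells) and -0.47 (L6F against rested cells), lower nuclear counts of 1 (M9C against rested cells), lower mt-encoded counts of 2 (M9C against rested cells) and 1 (L6F against rested cells). That limit kept 549 of 1583 rested cells, 1816 of 1941 with M9C and 2394 of 2515 with L6F. Leaving out cells above 3 times the median depth gave nuclear sums of 0.39 (M9C against rested cells) and 0.46 (L6F against rested cells), lower mt-encoded counts of 1 (M9C against rested cells). Leaving out cells with other types' markers gave nuclear sums of 0.44 (L6F against rested cells), lower mt-encoded counts of 1 (M9C against rested cells).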
